A study of Homo sapiens with 3 samples.

Results

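The genes described here encode the proteins of the cytosolic ribosome. They were taken from the gene table by name, as protein-coding genes whose symbol is RPL or RPS with a number and optionally an A, together with RPLP0, RPLP1, RPLP2, RPSA and RPS4X, and without pseudogenes. This gave 77 of the 60664 gene identifiers, of which 46 belong to the large subunit and 31 to the small subunit. Their RNA was counted in 3 libraries of Caco-2, an established human colon carcinoma line that serves as a model of intestinal epithelium, with 1 library for each of DSS+polydatin, DSS and control. DSS+polydatin cells received 30 µM polydatin, a glucoside of resveratrol, for 2 h and then polydatin together with 3% dextran sulfate sodium (DSS) for 8 h. DSS cells received 3% DSS for 8 h, DSS being a sulfated polysaccharide that provokes colitis in rodents, and control cells were untreated. All 3 are labelled wild type, and the title of the series places the question in DSS injury and ferroptosis, a cell death driven by iron and oxidised lipids.

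Ribosomal proteins are made in matching amounts and assembled with ribosomal RNA in the nucleolus, and dividing cells such as those of the gut epithelium devote much transcription to them. Most of their mRNAs begin with a 5′ terminal oligopyrimidine (TOP) tract, a C followed by a run of C and T, through which mTORC1 and the RNA-binding protein LARP1 regulate their translation and stability together. Free RPL5 and RPL11, in a particle with the small ribosomal RNA of the large subunit, also bind the ubiquitin ligase MDM2.

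The TOP tract can be seen at the annotated transcription starts of these genes, which are shown because it is the feature that they share in sequence. RefSeq promoter entries (build GRCh38.p14, 300 bases each) were matched for 62 of the 77 genes. The others include RPL23, RPL23A, RPL30, RPL37, RPL5, RPL7, RPL8, RPS15A, RPS2 and RPS20. Each line below gives 40 bases before the annotated start and 20 from it on, read 5′ to 3′ on the gene's own strand, with the longest C-led pyrimidine run that begins within 10 bases of the start in capitals. RPL41, RPL37A, RPL24 and RPL35 were among the lowest genes of the family in DSS+polydatin against DSS, RPL28, RPLP2, RPL13 and RPS28 were among the highest, and RPS3 had the highest mean level of the 3 libraries.
RPL41, chr12:56116593-56116652, plus strand: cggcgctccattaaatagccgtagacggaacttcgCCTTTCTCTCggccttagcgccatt
RPL37A, chr2:216498804-216498863, plus strand: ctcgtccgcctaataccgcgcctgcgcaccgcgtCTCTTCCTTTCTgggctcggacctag
RPL24, chr3:101686699-101686758, minus strand: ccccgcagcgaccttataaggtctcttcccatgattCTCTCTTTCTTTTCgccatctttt
RPL35, chr9:124861938-124861997, minus strand: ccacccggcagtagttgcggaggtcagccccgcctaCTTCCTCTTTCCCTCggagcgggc
RPL28, chr19:55385892-55385951, plus strand: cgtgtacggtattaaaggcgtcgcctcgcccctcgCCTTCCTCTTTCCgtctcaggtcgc
RPLP2, chr11:809927-809986, plus strand: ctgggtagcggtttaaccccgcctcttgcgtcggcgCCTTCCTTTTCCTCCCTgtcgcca
RPL13, chr16:89560617-89560676, plus strand: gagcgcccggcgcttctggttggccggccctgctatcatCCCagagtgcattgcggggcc
RPS28, chr19:8321456-8321515, plus strand: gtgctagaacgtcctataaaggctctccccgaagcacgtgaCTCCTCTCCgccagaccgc
RPS3, chr11:75399478-75399537, plus strand: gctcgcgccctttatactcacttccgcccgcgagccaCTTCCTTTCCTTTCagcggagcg

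Genes at both ends of the range carried such a run, and RPL13, with 3 pyrimidines, had the shortest of those shown. Among the 10 lowest genes in DSS+polydatin against DSS are others whose lines are not printed. Of these, RPS26, the lowest of all, had a run of 5, RPL6 one of 4, RPS3A one of 7 and RPS14 one of 12. A C followed by at least 4 pyrimidines at the annotated start itself was present in 42 of the 62 matched genes (67.7%), against 1429 of all 35116 promoters in the same table (4.07%). A run of at least 8 beginning within 10 bases of the start was present in 45 (72.6%), against 9.17% of all promoters. The 45 genes with such a run had a median log2 ratio of -0.27 in DSS+polydatin against DSS, and the 17 with a shorter run one of -0.24. Of motifs searched on both strands of the whole 300 bases, the ETS core CCGGAA was present in 33 genes (53.2%, against 17.2% of all promoters) and the YY1 core AAGATGG in 8 (12.9%, against 5.84%). The E-box CACGTG was present in 3 genes (4.84%, against 7.26% of all promoters), RPS28 among them, and the TATA box TATAAA in 5 (8.06%, against 11.5%). These are matches of letters at annotated starts, and the starts used in Caco-2 cells were not measured.

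Library totals were between 16667622 and 18825914 counts. Each group has 1 library, so nothing here has a replicate check, no p-value is given, and every ratio compares libraries rather than conditions. Intervals are exact 95% Clopper-Pearson intervals and cover counting error only, since reads that carry no molecular identifier need not be separate molecules. In bulk RNA, fewer cells of a kind and less RNA per cell cannot be told apart. Among 12 markers of intestinal epithelium, KRT8 and EPCAM were high in all 3 libraries and KRT20 was under 1 CPM (counts relative to the scaled library total). The enterocyte enzyme SI was at 8.54 CPM in DSS+polydatin, 9.28 CPM in DSS and 47.0 CPM in control, CDX2, a transcription factor of the intestine, at 78.3, 118 and 147 CPM, and LGALS4, an intestinal lectin, at 1.43, 0.540 and 0.220 CPM. The 12 summed to 7756 CPM in DSS+polydatin, 9454 CPM in DSS and 7882 CPM in control. KRT8 alone gave 2815 CPM in DSS+polydatin, 3600 CPM in DSS and 2970 CPM in control, and KRT18 gave 1725, 2308 and 1872 CPM. The 8 markers of immune, stromal and endothelial cells and muscle summed to between 58.8 and 67.4 CPM, most of it COL1A1, and the leukocyte marker PTPRC was at 0 in all libraries. Replication-dependent histone genes summed to 236 CPM in DSS+polydatin, 240 CPM in DSS and 118 CPM in control, and mitochondrially encoded genes held 4.33%, 4.77% and 5.30% of counts in the same order. The part of any of these in the values below was not tested.

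Ribosomal protein genes were among the most abundant transcripts of these cells and took the smallest share of counts in DSS+polydatin. Together they held 4.74% of all counts in DSS+polydatin (4.73 to 4.75), 5.34% in DSS (5.33 to 5.35) and 5.57% in control (5.56 to 5.58). The large subunit held 2.67% in DSS+polydatin, 3.01% in DSS and 3.18% in control. The small subunit held 2.07% in DSS+polydatin, 2.32% in DSS and 2.39% in control. The order was the same for both subunits.

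Levels are compared between genes as CPM per kb of coding sequence, a scale that overstates genes whose coding sequence is short against their untranslated parts. The median level over the 77 genes was 1100 CPM per kb in DSS+polydatin, 1309 in DSS and 1406 in control. RPS3, which lines the mRNA entry channel, was the highest by the mean of the libraries, at 3140 CPM per kb in DSS+polydatin, 3797 in DSS and 4044 in control. RPL37A, a zinc-binding protein of the large subunit, followed with 2878, 3894 and 4160 CPM per kb. The next were RPS27 (3083 in DSS+polydatin, 3409 in DSS, 3141 in control), RPL37 (2663, 3090 and 3213) and RPS18 (2684, 3084 and 3100). Although the proteins are needed in nearly equal number, the counted levels spanned from 4.98 to 3140 CPM per kb in DSS+polydatin, from 5.89 to 3894 in DSS and from 4.45 to 4160 in control. On a log scale, most of that span lay in 6 genes at under 10% of the median control level, among them RPS10, RPL17, RPL26, RPL36A and RPL23A.

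**Figure D1:**
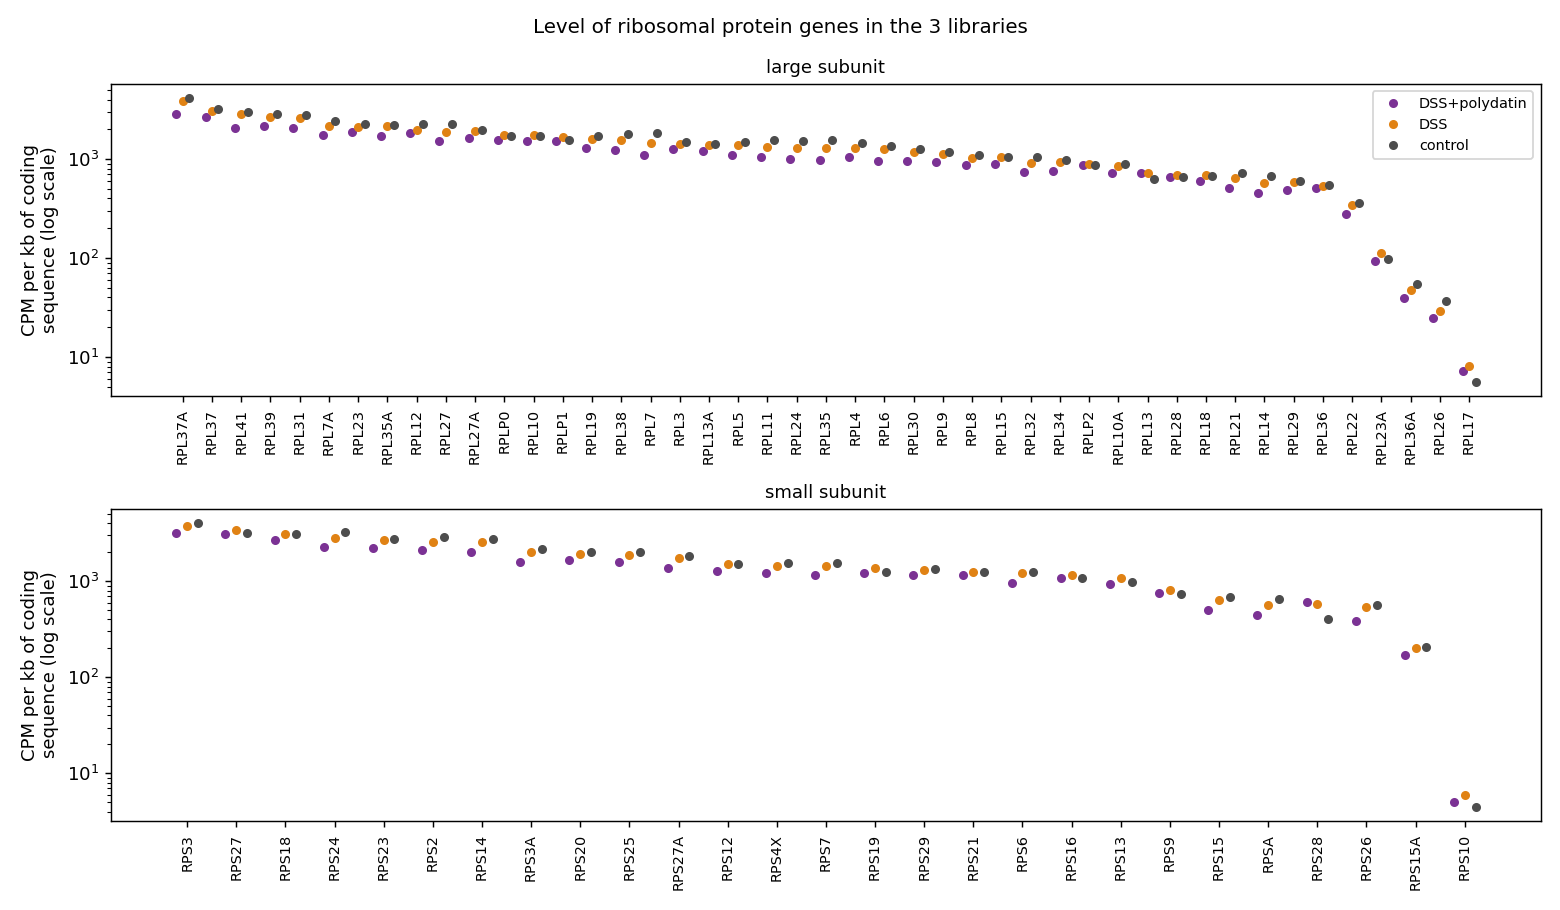
Level of 72 of the 77 ribosomal protein genes in CPM per kb of coding sequence (log axis), large subunit above and small subunit below, with 1 point for each of the DSS+polydatin, DSS and control libraries and genes ordered by mean level. Most genes lie near the medians of 1100, 1309 and 1406 CPM per kb, and a few genes, RPS10 and RPL17 the lowest, stand far under the rest.

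In DSS+polydatin against DSS nearly the whole family was lower. The log2 ratio of scaled counts was below 0 in 75 of the 77 genes and above 0 in RPS28 and RPL13, with a median of -0.27 (a ratio of 0.827) beside a median of -0.01 over all 14792 measured genes, those that reach 1 CPM in at least 1 library. Scaling by total counts in place of TMM factors left 71 below 0 and 6 above, and DESeq2 size factors left 76 and 1. At least 1.2-fold lower with an interval excluding 1 were 39 of the 77 genes, where the same rule called 14.2% of all measured genes, and none was 1.2-fold higher, where it called 13.6%. With total counts as scaling 11 of the 77 were 1.2-fold lower, against 8.23% of all measured genes. No gene was 1.5-fold apart, which 2.60% of all measured genes were in the lower direction and 5.39% in the higher. The changes were small and close together, with a standard deviation of 0.11 over the 77 log2 ratios. The quartiles of the family were -0.33 and -0.19. Over 12273 measured protein-coding genes, the log2 ratio of DSS+polydatin against DSS fell with the log2 mean CPM (Pearson r -0.30, Spearman rho -0.27). Among genes with a CPM of at least 10, the median was -0.05 over all 10084 and -0.27 over 74 of the family. Of those 74, 38 were 1.2-fold lower, against 18.5% of all genes at that filter. The part of expression level in the result was not tested.

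**Figure D2:**
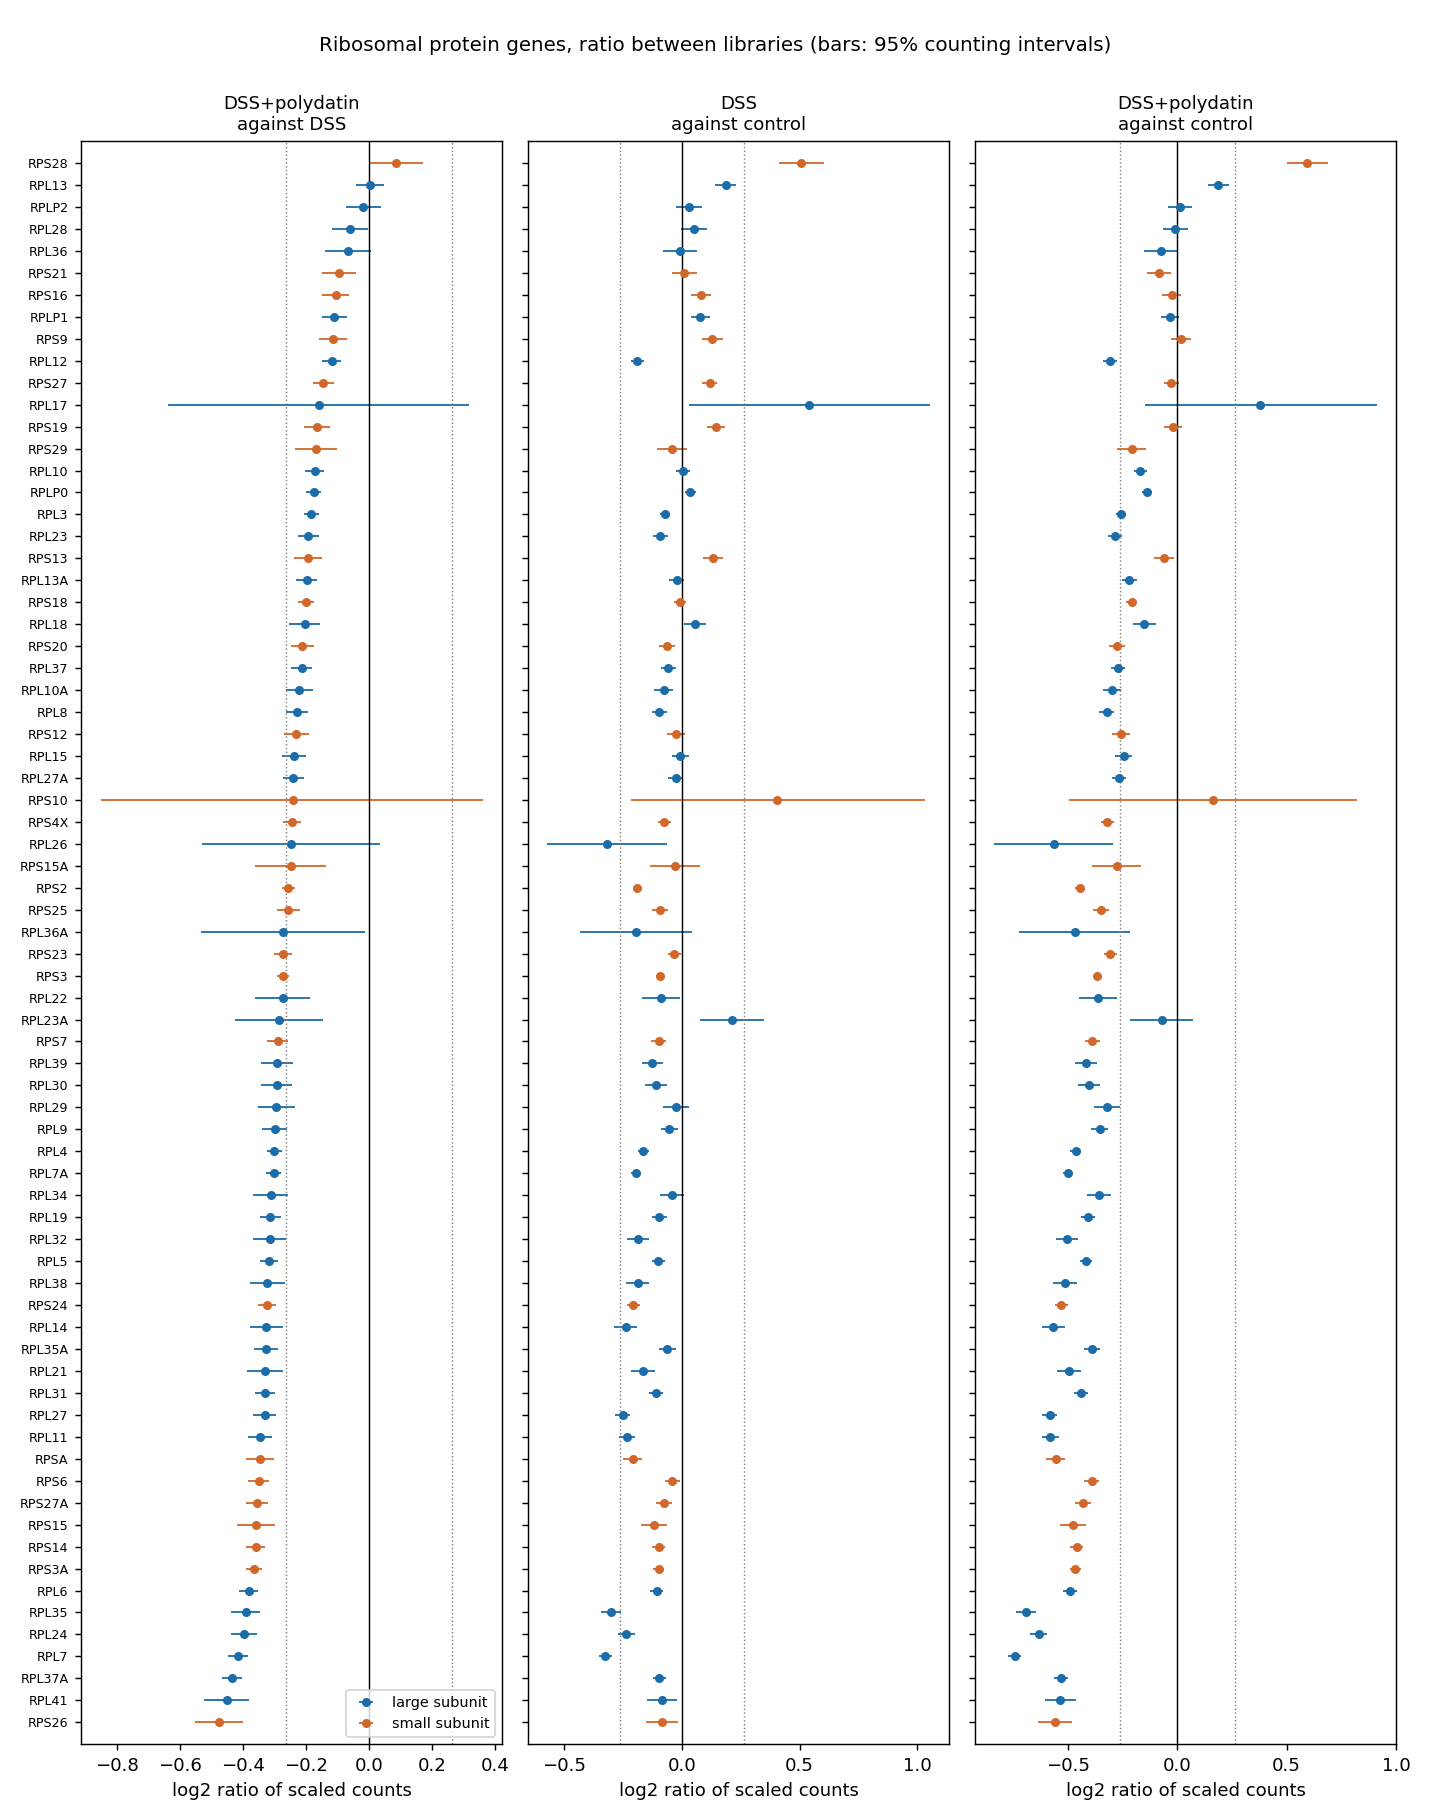
Log2 ratio of scaled counts for 72 of the 77 ribosomal protein genes in the 3 comparisons, with 95% counting intervals as bars; dotted lines mark 1.2-fold and genes are ordered by the left panel. In DSS+polydatin against DSS all points but RPS28 and RPL13 lie left of 0, in DSS against control they lie on both sides, and in DSS+polydatin against control most lie left of 0, while RPS28 is right of 0 in all 3.

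**Figure D3:**
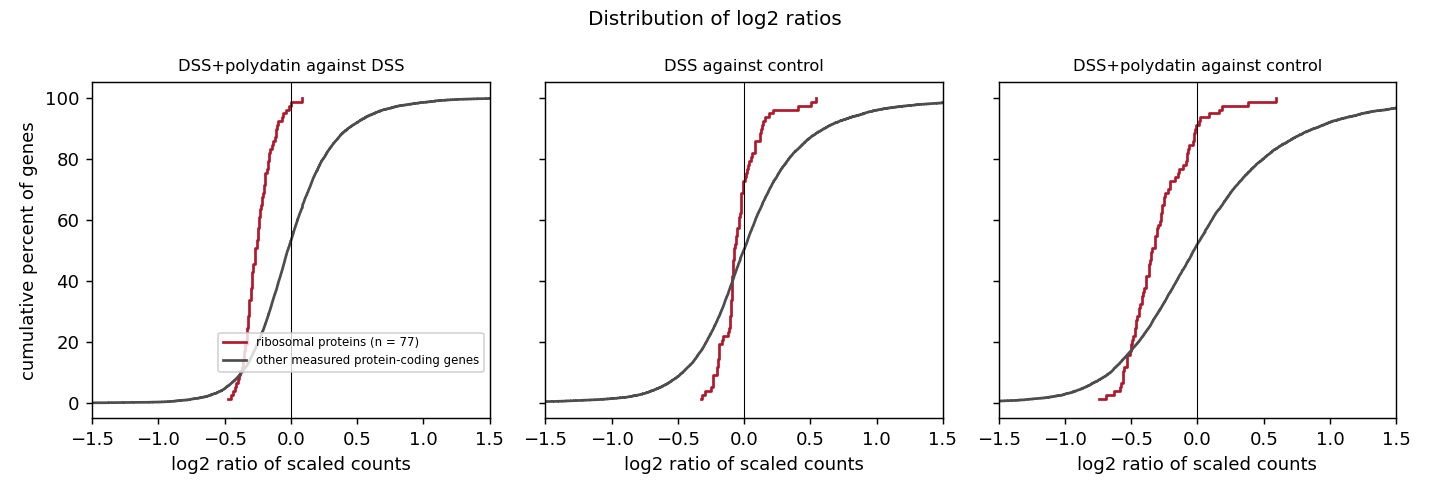
Cumulative percent of genes by log2 ratio of scaled counts, for the 77 ribosomal protein genes and for the other measured protein-coding genes, in the 3 comparisons. The curve of the ribosomal proteins is steep and lies to the left in DSS+polydatin against DSS (median -0.27) and in DSS+polydatin against control (median -0.34), and close to 0 in DSS against control (median -0.07).

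The lowest genes in DSS+polydatin against DSS came from both subunits. RPS26 (chromosome 12, 56041351 to 56044697, GRCh38), which lies where mRNA leaves the small subunit, had 2330 counts in DSS+polydatin, 3442 in DSS and 3572 in control, and was at 0.719 times DSS (0.682 to 0.758). RPL41 (chromosome 12, 56116586 to 56117943), the shortest protein of the ribosome, had 2720 counts in DSS+polydatin, 3955 in DSS and 4102 in control, a ratio to DSS of 0.731 (0.696 to 0.767). RPL37A (chromosome 2, 216498189 to 216579180) had 13849 counts in DSS+polydatin, 19913 in DSS and 20848 in control, a ratio to DSS of 0.739 (0.723 to 0.755). In these 3 genes the DSS and control libraries were close to each other and DSS+polydatin stood under both. RPL7 was at 0.749 times DSS (0.733 to 0.765).

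The highest genes were near 1 in DSS+polydatin against DSS, and with TMM factors RPS28 alone had an interval wholly above it. RPS28, a neighbour of the mRNA exit, had 2204 counts in DSS+polydatin, 2204 in DSS and 1519 in control, and its ratio to DSS was 1.06 (1.001 to 1.13) after scaling. Its log2 ratio was 0.09 with TMM factors and 0.08 with DESeq2 size factors, where its interval held 1. With total counts it was 0.18, and RPL13, at 0.09, then also had an interval wholly above 1. RPL13 had 7990 counts in DSS+polydatin, 8476 in DSS and 7300 in control, with a ratio to DSS of 1.00 (0.971 to 1.03). RPLP2 was at 0.988 times DSS (0.951 to 1.03) and RPL28 at 0.959 (0.922 to 0.998). These 4 genes stood apart from the median ratio of 0.827 by more than their counting error.

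By role, the stalk that recruits translation factors to the large subunit was nearer to DSS than the rest of the ribosome. RPLP0, which anchors the stalk, had 25876 counts in DSS+polydatin, 31059 in DSS and 29660 in control, 0.885 times DSS (0.871 to 0.900). RPLP1 and RPLP2, the paired proteins that reach into solution, were at 0.926 (0.901 to 0.953) and 0.988 times DSS, and none of the 3 was 1.2-fold lower. The pair bound to the small RNA of the large subunit was lower, with RPL5 at 0.802 times DSS (0.786 to 0.818) and RPL11 at 0.787 (0.766 to 0.808). RPL5 had 17257 counts in DSS+polydatin, 22870 in DSS and 23996 in control, and RPL11 had 9725, 13131 and 15122. Of the 8 proteins of the peptide exit tunnel and its rim, 6 were 1.2-fold lower, with a median log2 ratio of -0.30. Among them RPL35, at the rim, was at 0.762 times DSS (0.738 to 0.787) and RPL39, inside the tunnel, at 0.817 (0.789 to 0.845).

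In the small subunit RPS6, the substrate of the S6 kinases, had 12376 counts in DSS+polydatin, 16773 in DSS and 16889 in control, 0.784 times DSS (0.766 to 0.802). The DSS and control libraries held almost the same number and DSS+polydatin was below both. RPS3 was at 0.827 times DSS (0.816 to 0.838) from 39916 counts in DSS+polydatin and 51287 in DSS, and RPS4X, encoded on the X chromosome, at 0.844 (0.827 to 0.861). RPS27A, which is made as a fusion with ubiquitin, was at 0.782 times DSS (0.763 to 0.801). RPSA, also known as a precursor of the laminin receptor, was at 0.786 (0.762 to 0.811). RPL22, whose paralog RPL22L1 can stand in for it in mice, was at 0.827 times DSS (0.778 to 0.879). The subunits were alike in this comparison, with a median log2 ratio of -0.29 for the large and -0.25 for the small one.

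Proteins at the centre of the large subunit were also lower in DSS+polydatin than in DSS by their counting intervals. RPL3, which reaches to the peptidyl transferase centre, had 26552 counts in DSS+polydatin, 32033 in DSS and 32990 in control, a ratio of DSS+polydatin to DSS of 0.881 (0.866 to 0.895). RPL4, with a loop in the exit tunnel, had 23665 counts in DSS+polydatin, 30982 in DSS and 33983 in control, a ratio of 0.812 (0.798 to 0.825). RPL10, which joins the subunit late and lies near the transfer RNAs, had 17200 counts in DSS+polydatin, 20598 in DSS and 20115 in control, and RPL8, another protein of the core, had 11832, 14721 and 15399. Their ratios to DSS were 0.887 (0.869 to 0.905) for RPL10 and 0.854 (0.833 to 0.875) for RPL8, so that of these 4 only RPL4 passed 1.2-fold. RPL7A, which carries small nucleolar RNAs, had 24176 counts in DSS+polydatin, 31689 in DSS and 35552 in control, a ratio of 0.811 (0.797 to 0.824). RPL6 had 14452 counts in DSS+polydatin, 20019 in DSS and 21121 in control, a ratio of 0.767 (0.751 to 0.784), among the 10 lowest of the family.

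RPL12, at the base of the stalk, differed from the stalk itself in DSS against control. It had 15746 counts in DSS+polydatin, 18163 in DSS and 20273 in control, with 0.921 (0.902 to 0.941) in DSS+polydatin against DSS and 0.878 (0.861 to 0.896) in DSS against control. RPLP2, at the tip, had 5243 counts in DSS+polydatin, 5640 in DSS and 5411 in control, and its ratios were near 1 in both comparisons, at 0.988 and 1.02 (0.984 to 1.06). For RPL12 the difference between DSS and control was the larger one. In DSS against control RPLP0 was at 1.03 (1.01 to 1.04) and RPLP1 at 1.06 (1.03 to 1.09). In DSS+polydatin against DSS, RPL12 lay between RPLP0 at 0.885 and RPLP2, and close to RPLP1 at 0.926.

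Inside the small subunit, RPS2 and RPS3 of the mRNA entry channel were the most counted. RPS2 had 32689 counts in DSS+polydatin, 41480 in DSS and 46297 in control, a ratio to DSS of 0.837 (0.825 to 0.850), and its pseudogenes held 22.3% as many counts as the gene. RPS14, next to the mRNA exit, had 15817 counts in DSS+polydatin, 21580 in DSS and 22620 in control, a ratio to DSS of 0.779 (0.763 to 0.795). RPS23, of the decoding centre, had 16588 counts in DSS+polydatin, 21308 in DSS and 21331 in control, a ratio of 0.827 (0.810 to 0.844). RPS3A had 21774 counts in DSS+polydatin, 29830 in DSS and 31282 in control, a ratio of 0.776 (0.762 to 0.789), among the 10 lowest. For RPS14, RPS23 and RPS3A the DSS library was close to control, at ratios of DSS to control of 0.935, 0.979 and 0.935.

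In DSS against control the family was spread on both sides of 0, with quartiles of -0.11 and 0.01. The median log2 ratio was -0.07 (a ratio of 0.950), against -0.01 over all measured genes, with 56 genes below 0 and 21 above. At least 1.2-fold lower were 3 of the 77 genes (RPL7, RPL35 and RPL26), under the 17.3% of all measured genes that the rule called, and 1.2-fold higher were 2 (RPS28 and RPL17), against 19.0% of all measured genes. The call of RPL17 rests on 83 counts in DSS and 56 in control, and its log2 ratio was -0.21 with pseudogene counts added. RPL26 had 237 counts in DSS and 289 in control, and its pseudogenes had 500 and 565. With pseudogene counts added, 2 genes were 1.2-fold lower, against 17.3% of all measured genes, and RPL26 was not among them. None was 1.5-fold apart, against 5.81% of measured genes lower and 9.45% higher. In this comparison fewer ribosomal protein genes passed 1.2-fold than the share over all genes.

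RPL7 had 14270 counts in DSS+polydatin, 20243 in DSS and 24831 in control, and DSS was at 0.799 times control (0.784 to 0.814). RPL35 (chromosome 9, 124857880 to 124861981) had 6275 counts in DSS+polydatin, 8750 in DSS and 10551 in control, a ratio of DSS to control of 0.813 (0.790 to 0.836). In both genes the 3 libraries stood in order, DSS+polydatin under DSS under control. RPL26, at the tunnel rim, was at 0.804 times control (0.674 to 0.958) from 237 counts in DSS and 289 in control. RPL27 and RPL14 were at 0.841 (0.822 to 0.860) and 0.848 times control (0.821 to 0.876). The other end was led by genes of few counts beside RPS28, namely RPL17 at 1.45 times control (1.02 to 2.08), from 83 counts in DSS and 56 in control, and RPS10 at 1.32 (0.863 to 2.04), from 54 and 40.

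RPS28 (chromosome 19, 8321158 to 8323340) departed from the family. DSS was at 1.42 times control (1.33 to 1.52) and DSS+polydatin at 1.51 times control (1.41 to 1.61), so that the control library alone was low. With the counts of its 5 pseudogenes added the log2 ratios were 0.46 for DSS against control and 0.53 for DSS+polydatin against control, beside 0.51 and 0.60 without them. RPS28 overlaps KANK3, NDUFA7 and another coding gene, and the strand setting of the counting is not given. KANK3 had 21 counts in DSS+polydatin, 14 in DSS and 8 in control, NDUFA7 had 8, 4 and 7, and the other was at 0 in all libraries. RPL23A, at the tunnel exit, was at 1.16 times control in DSS (1.06 to 1.27) and RPL13 at 1.14 (1.103 to 1.17).

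RPS24 and RPSA were the small-subunit genes with the largest difference between DSS and control in the lower direction. RPS24, mutated in some families with Diamond-Blackfan anaemia, had 15786 counts in DSS+polydatin, 21005 in DSS and 23729 in control, a ratio of DSS to control of 0.868 (0.852 to 0.884). RPSA had 6920 counts in DSS+polydatin, 9356 in DSS and 10587 in control, a ratio of 0.866 (0.842 to 0.891). On the other side, RPS27, RPS9, RPS13 and RPS16 were higher in DSS than in control by their intervals, at 1.09, 1.09, 1.097 and 1.06 times control. RPS27, a zinc-binding protein, had 13547 counts in DSS+polydatin, 15914 in DSS and 14371 in control, and its pseudogenes, RPS27P3 chief among them, had 1800, 1555 and 1096. The gene was highest in DSS, whereas its pseudogene rows were highest in DSS+polydatin.

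In DSS+polydatin against control the median log2 ratio was -0.34 (a ratio of 0.790), with 70 genes below 0 and 7 above, beside a median of -0.02 over all measured genes. At least 1.2-fold lower were 49 of the 77 genes, where the rule called 27.3% of all measured genes, and only RPS28 was 1.2-fold higher, where it called 25.5%. The count of lower genes was 32 with total counts as scaling, against 20.5% of all measured genes. It was 29 with the trend on GC content and coding length removed, against 27.5%. With a CPM of at least 10 it was 49 of 74, against 34.0% of all genes at that filter. At 1.5-fold, RPL7, RPL35 and RPL24 were lower (3 of 77, against 12.4% of all measured genes) and RPS28 was higher (1 of 77, against 16.0%). RPL7 was at 0.598 times control (0.586 to 0.611), RPL35 at 0.619 (0.600 to 0.639) and RPL24, which bridges the subunits, at 0.645 (0.627 to 0.663). RPL27 was at 0.668 (0.652 to 0.685) and RPL11 at 0.670 (0.653 to 0.687). The large subunit had a median log2 ratio of -0.36 and the small subunit one of -0.30.

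RPL13 shared with RPS28 a level above control in DSS+polydatin, with a ratio of DSS+polydatin to control of 1.14 (1.104 to 1.18). They were among 3 genes of the family with an interval wholly above 1 in that comparison, against 63 wholly below it. Of all 14792 measured genes, 4534 had an interval wholly above 1 and 5083 one wholly below it.

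RPL24 (chromosome 3, 101681091 to 101686782) had 8158 counts in DSS+polydatin, 11424 in DSS and 13174 in control, and RPL27 had 10720, 14329 and 16706. Both stood in the order that most of the family followed. Over the 77 genes, scaled counts were lowest in DSS+polydatin for 70, and for 56 the order was DSS+polydatin under DSS under control. DSS was the highest library for 19 genes and the lowest for none. DSS+polydatin was the highest for RPS28 and RPL13. For RPL13 that order rests on a difference within counting error, 458.2 CPM in DSS+polydatin and 457.5 CPM in DSS, and its log2 ratio of DSS+polydatin against DSS was just below 0 with DESeq2 size factors and -0.13 with the trend on GC content and coding length removed.

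DSS+polydatin against DSS and DSS against control share the DSS library, so they are set side by side here without a measure of their relation. By counting intervals, 44 genes were below 1 in both. Of all 14792 measured genes, 3811 were below 1 in DSS+polydatin against DSS and 4020 in DSS against control. How many of all genes showed each joint pattern was not counted. For 10 genes DSS was above control and DSS+polydatin below DSS, among them RPL18, RPL23A, RPLP0, RPLP1, RPS13, RPS16, RPS19, RPS27 and RPS9. RPS19, a small-subunit protein mutated in Diamond-Blackfan anaemia, had 9289 counts in DSS+polydatin, 11068 in DSS and 9808 in control, 0.892 times DSS in DSS+polydatin (0.867 to 0.917) and 1.11 times control in DSS (1.08 to 1.14). RPLP1 had 9137 counts in DSS+polydatin, 10479 in DSS and 9725 in control. In such genes DSS+polydatin and control were close, with ratios of 0.986 (0.959 to 1.01) for RPS19 and 0.978 (0.951 to 1.01) for RPLP1.

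The ratios varied with the base composition of the genes. Over the 77 genes, the log2 ratio of DSS+polydatin against DSS had a Pearson r of 0.47 and a Spearman rho of 0.44 with the GC content of the coding sequence. Over 12273 measured protein-coding genes, r was 0.23 and rho 0.25. In DSS against control r was 0.34 in the family and 0.29 over the protein-coding genes, and in DSS+polydatin against control 0.44 and 0.34. These are descriptions across genes of the same libraries, which share depth and composition, and genes are not independent replicates. The 39 genes at or over the family's median GC content of 51.6% had median log2 ratios of -0.21 in DSS+polydatin against DSS, -0.02 in DSS against control and -0.22 in DSS+polydatin against control, and the 38 under it -0.30, -0.09 and -0.40. After a smooth trend on GC content and coding length over all genes was taken out, the median for DSS+polydatin against DSS was -0.21 with 75 genes still below 0, and 24 genes were 1.2-fold lower in place of 39, against 15.6% of all measured genes. The part of GC content in the result was not tested further.

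**Figure D4:**
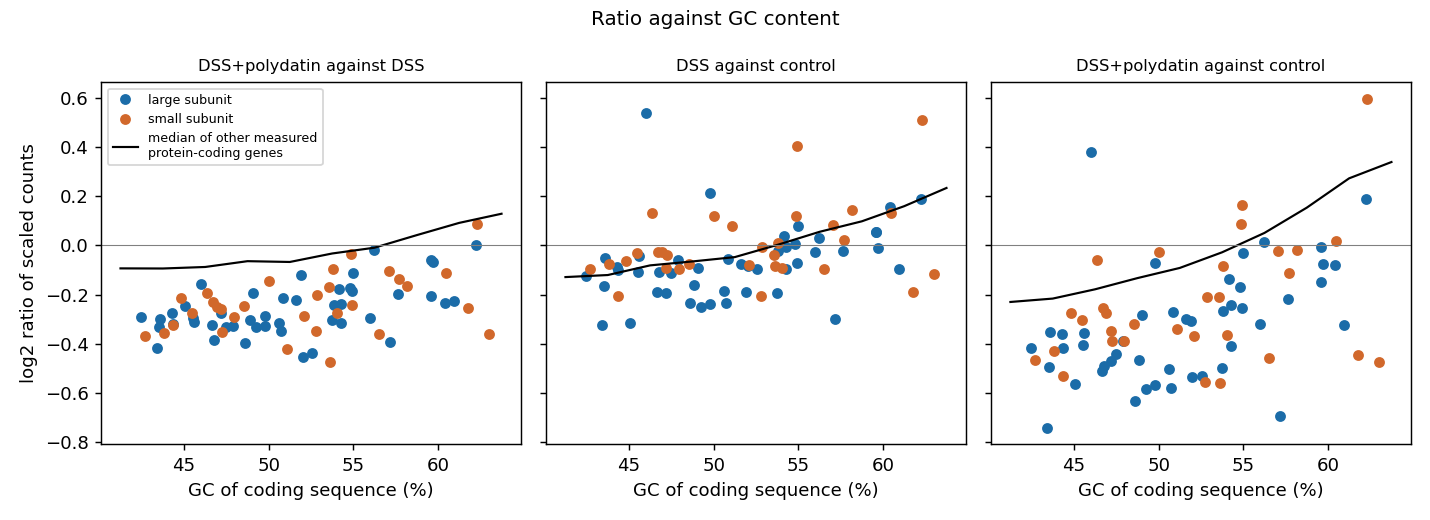
Log2 ratio of scaled counts against GC content of the coding sequence (%) for the ribosomal protein genes of the large and small subunits, with the median of the other measured protein-coding genes in GC bins as a black line, in the 3 comparisons. In DSS+polydatin against DSS nearly all points lie under the line at every GC content, while in DSS against control they scatter around it.

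The genes on chromosome 19, which is rich in GC, stood nearer to or above 1. The 12 of them had a median log2 ratio of -0.12 in DSS+polydatin against DSS and 0.07 in DSS against control, and the 65 others had -0.29 and -0.08. Of the 10 highest genes in DSS+polydatin against DSS, 6 were on chromosome 19 and their median GC content was 58.3%. Of the 10 lowest none was, and their median GC content was 51.6%. RPS15 was an exception on this chromosome, with 63.0% GC, 3776 counts in DSS+polydatin and 5143 in DSS, a ratio of 0.780 (0.748 to 0.814). The 28 genes that carry small nucleolar RNAs in their bodies had a median log2 ratio of -0.24 in DSS+polydatin against DSS and the 49 without them -0.27.

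A few genes had far fewer counts than the rest of the family, and rows of near-identical copies held reads. RPS10, a protein near the mRNA entry, had 43 counts in DSS+polydatin, 54 in DSS and 40 in control. RPL17, at the tunnel rim, had 70, 83 and 56, and its pseudogenes summed to 1181 counts in DSS+polydatin, 1276 in DSS and 1483 in control, with RPL17P7 the largest. RPL36A had 218 counts in DSS+polydatin, 280 in DSS and 314 in control, whereas RPL36AP37 alone had 1061, 1504 and 1762. RPS10, RPL17 and RPL36A each overlap a readthrough gene that was listed at 0 in every library (RPS10-NUDT3, RPL17-C18orf32 and RPL36A-HNRNPH2). How the counting treated reads shared by overlapping genes or copies is not given, so the values of these genes are uncertain.

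Pseudogenes named after the 77 genes number 1586 in the table, and in 11 genes their counts came to at least 20% of the gene's own. With pseudogene counts added, the median log2 ratio of DSS+polydatin against DSS was again -0.27. RPL41 was then at -0.53, beside -0.45 without them, its pseudogene RPL41P1 having 2215 counts in DSS+polydatin, 3644 in DSS and 3714 in control. RPL17 reversed in DSS against control, to -0.21 from the sum beside 0.54 from the gene alone, and in DSS+polydatin against control, to -0.24 beside 0.38. RPS10 turned in DSS+polydatin against DSS, to 0.16 from the sum beside -0.24 from the gene alone. Without the 6 genes under 10% of the median control level, 36 of 71 genes were 1.2-fold lower in DSS+polydatin against DSS, 2 lower and 1 higher in DSS against control, and 47 lower and 1 higher in DSS+polydatin against control. Over all measured genes the rule called 14.2% lower in DSS+polydatin against DSS. It called 17.3% lower and 19.0% higher in DSS against control, and 27.3% and 25.5% in DSS+polydatin against control. The subset without the 6 genes was chosen after its values were seen.

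Other genes of the ribosome were set beside the family from lists. FAU, a fusion of a ubiquitin-like protein with a ribosomal protein outside the name rule, was at 0.888 times DSS in DSS+polydatin (0.807 to 0.977) and 1.104 times control in DSS (1.01 to 1.21). Of 8 paralogs 5 were measured, with a median log2 ratio of -0.33 in DSS+polydatin against DSS. RPL22L1 had 28.8 CPM in DSS+polydatin, 41.3 in DSS and 32.1 in control, 0.696 times DSS (0.621 to 0.780) and 1.29 times control in DSS (1.15 to 1.44). The proteins of the mitochondrial ribosome, which is built from other genes, were also lower, with 38 of 75 measured genes 1.2-fold lower and none higher in DSS+polydatin against DSS, beside 14.2% and 13.6% of all measured genes, and a median of -0.30. In DSS against control, 29 of the 75 were 1.2-fold lower and 2 higher, beside 17.3% and 19.0% of all measured genes, with a median of -0.21, whereas the cytosolic family had a median of -0.07.

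Of 17 other measured genes whose mRNAs carry a TOP tract, 6 were 1.2-fold lower and none higher in DSS+polydatin against DSS (median log2 ratio -0.17), beside 14.2% and 13.6% of all measured genes. In DSS against control 3 were lower and 2 higher, beside 17.3% and 19.0%. HNRNPA1, an mRNA-binding protein, was at 0.729 times DSS in DSS+polydatin (0.716 to 0.743) and 0.791 times control in DSS (0.778 to 0.803). The elongation factor genes differed among themselves. EEF1B2 was at 0.809 times DSS in DSS+polydatin (0.782 to 0.836) and 0.957 times control in DSS (0.927 to 0.987), close to the median of the family. EEF1A1 was at 0.918 times DSS (0.913 to 0.923) and 1.26 times control in DSS (1.251 to 1.27), and EEF2 at 1.096 (1.08 to 1.11) and 1.08 (1.06 to 1.09). EEF1G was listed at 0 in all libraries. The log2 ratios of the 17 in DSS+polydatin against DSS ran from -0.62 (VIM) to 0.13 (EEF2). The value of VIM rests on 46 counts in DSS+polydatin and 75 in DSS, a ratio of 0.652 (0.441 to 0.953). The next lowest was HNRNPA1 at -0.46, while the ribosomal protein genes ran from -0.48 (RPS26) to 0.09 (RPS28).

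The chaperones and importers that escort new ribosomal proteins were lower by more. Of 10 measured genes, 9 were 1.2-fold lower in DSS+polydatin against DSS, with a median log2 ratio of -0.43, beside 14.2% of all measured genes, and 4 in DSS against control, with a median of -0.24, beside 17.3%. RRS1, which in yeast brings the particle of RPL5 and RPL11 into the forming subunit, had 109 counts in DSS+polydatin, 244 in DSS and 252 in control, 0.475 times DSS (0.375 to 0.597). Its partner RPF2 had 509 counts in DSS+polydatin, 763 in DSS and 1128 in control, 0.709 times DSS (0.632 to 0.794). BCCIP, whose yeast counterpart escorts RPL23, was at 0.652 times DSS (0.612 to 0.694). RPS19BP1 was near 1, at 0.981 (0.857 to 1.12).

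Of 13 regulators of growth and TOP mRNAs, 2 were 1.2-fold lower and 1 higher in DSS+polydatin against DSS, beside the 14.2% and 13.6% of all measured genes. MYC, a transcription factor that drives ribosome production, had 120 CPM in DSS+polydatin, 217 in DSS and 163 in control, 0.555 times DSS (0.527 to 0.586) and 1.33 times control in DSS (1.27 to 1.40). DSS was thus the highest library for MYC, which was the order of 19 of the 77 ribosomal protein genes. EIF4EBP1, the mTORC1 target that restrains cap-dependent translation, had 27.6 CPM in DSS+polydatin, 24.7 in DSS and 60.5 in control. LARP1 was at 0.848 times DSS (0.825 to 0.871), MTOR at 0.946 (0.888 to 1.01) and TSC2, an inhibitor of mTORC1, at 1.23 (1.15 to 1.33). MDM2, the partner of free RPL5 and RPL11, had 123 CPM in DSS+polydatin, 101 in DSS and 104 in control, 1.22 times DSS (1.14 to 1.29).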

How the data were processed

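The deposited table holds whole-number read counts per Ensembl gene for 3 libraries of Caco-2 cells, with no normalization by the authors. Alignment was with HISAT2 and the build was GRCh38, per the submitters' processing notes. For the counting program, annotation and strand, the setting is not given in the sources used here. Symbols were matched for 60463 identifiers, and coordinates, gene types, coding length and GC content were taken from GENCODE release 29 (58396 identifiers). Counts were scaled with TMM factors (1.05 for DSS+polydatin, 0.984 for DSS, 0.971 for control) from edgeR 4.0.16 in R 4.3.3. A gene was measured at 1 CPM in at least 1 library (14792 genes, 12279 of them protein-coding), and 1 CPM is between 17.4 and 18.5 counts. Ratios of scaled counts carry exact 95% Clopper-Pearson intervals (scipy 1.17.1, Python 3.11.15), and a gene was called at 1.2-fold with an interval excluding 1. Ratios were tested on simulated counts. Alternatives were other scaling (total counts, DESeq2 1.42.0 size factors, TMM without the family), filters, thinning, other folds, trend removal (statsmodels 0.14.6) and added pseudogene counts. The genes named in full by rule are the 5 highest and 5 lowest of each comparison, the 5 highest and 3 lowest by level, and members with a stated role. Further members were described outside that rule, and some of them, such as RPL6, RPS3A and RPS24, are introduced by their values. Members and lists were chosen with earlier results of these data known. Some members and list genes are counted in every total but not reported here by name, and the plots of single genes leave such members out.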

Additional observations from a re-analysis of the deposited data

How the results depend on the processing

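All ratios are relative to the scaling. With total counts as scaling, the median log2 ratio of the 77 genes was -0.19 in DSS+polydatin against DSS with 11 genes 1.2-fold lower, and -0.23 in DSS+polydatin against control with 32 lower and 2 higher, while the median of all measured genes was 0.08 and 0.09. The distance between the family's median and that of all genes was -0.26 and -0.32 under both scalings. That likeness is no check, because a change of scaling shifts every log2 ratio of a comparison by the same amount. With the GC content and coding length trend removed, the distance was -0.17 and -0.18. With that trend removed, the medians were -0.21 with 24 lower in DSS+polydatin against DSS, -0.019 in DSS against control, and -0.22 with 29 lower and 2 higher in DSS+polydatin against control. The mean in place of the median gave -0.30 in DSS+polydatin against control. At 1.1-fold the counts were 62 lower in DSS+polydatin against DSS, 16 lower and 6 higher in DSS against control, and 58 lower and 2 higher in DSS+polydatin against control. The share of all measured genes that pass 1.1-fold was not counted. At 1.5-fold, 0 of the family were lower in DSS+polydatin against DSS, beside 2.60% of all measured genes. In DSS against control 0 were lower and 0 higher, beside 5.81% and 9.45%. In DSS+polydatin against control 3 were lower, beside 12.4%. In DSS against control, 1 gene was 1.2-fold higher in place of 2 at a CPM of at least 10, with libraries thinned, with pseudogene counts added, and with 6 low genes left out. In the last 2 of these settings, 2 genes were 1.2-fold lower in place of 3. Adding pseudogene counts turned RPL17 in DSS against control, to -0.21, and in DSS+polydatin against control, to -0.24, and RPS10 in DSS+polydatin against DSS, to 0.16. The share of counts in the family was 4.95% in DSS+polydatin, 5.60% in DSS and 5.89% in control without mitochondrially encoded genes, 4.87%, 5.47% and 5.70% of protein-coding counts, and 4.98%, 5.61% and 5.86% with pseudogenes. Apart from the construction of each setting, the cause was not tested. No paired analysis was possible because each group has 1 library. Depth limits genes such as RPS10 and RPL17, with 40 to 83 counts.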
